A study of Mus musculus with 12 samples.

Results

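The comparison set mouse bone marrow cells carrying a shortened leukaemia fusion gene against cells carrying the empty vector. Its members were the 3 arrays titled CALM(400-648)+AF10 (677-758), called the minimal fusion here, and the 3 arrays titled MIG, together 6 of the 12 arrays of the series. The minimal fusion joins residues 400 to 648 of CALM, the clathrin adaptor encoded by Picalm, to residues 677 to 758 of AF10, the chromatin factor encoded by Mllt10. MIG is the retroviral vector with no insert, and the study's design names it as control and baseline. The other 6 arrays held the longer fusion CALM-AF10 (3 arrays) and the same fusion without the segment OM-LZ, CALM-AF10 ΔOM-LZ (3 arrays). They entered the fit that estimates the spread, and they are set beside the minimal fusion where a difference was also tested against them.

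All groups shared the same handling. Adult mice of the strain labelled C57/BL6/C3H received 5-fluorouracil, and total marrow was taken 4 days later. Prestimulation in culture took 48 h, after which the cells were laid over GFP+E86 cells, a retrovirus-producing line irradiated with 40 Gy, with cytokines and 5 µg/ml protamine sulfate. After a further 48 h away from the producers, GFP-positive cells were sorted, and total RNA was taken 96 h after transduction. Each array is therefore a mixed culture of marrow cells that took up virus, and in such bulk RNA fewer cells of a type and less RNA per cell cannot be told apart. The labels call the replicates biological, but the sources do not say whether each came from a separate animal or a pool.

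CALM-AF10 is a fusion found in acute leukaemias of several lineages. AF10 binds the histone methyltransferase DOT1L through its OM-LZ segment, and CALM-AF10 leukaemias are known for high HOXA genes, the homeobox factors that are active in stem cells and early progenitors and silenced as blood cells mature. In the marrow cultures used here, cytokines drive the progenitors on to neutrophils, monocytes, mast cells and megakaryocytes. A transforming gene can therefore show itself both in genes of immature cells and in genes of the mature lineages.

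The deposited values were log2 intensities. They covered 35556 probe sets, of which 21789 carried exactly 1 gene symbol and stood for 19938 genes. A gene with several probe sets is represented here by its brightest one. Array medians ran from 6.581 to 6.686, no 2 arrays were identical, and the correlation over probe sets was 0.9866 to 0.992 among the minimal fusion arrays, 0.9825 to 0.9871 among the MIG arrays and 0.9738 to 0.9928 between the groups. The between-group values overlapped those within the groups. Blood-cell identity was plain on all 6 arrays: Ptprc (CD45) lay at 10.53, 10.25 and 10.13 with the minimal fusion and at 10.45, 10.92 and 10.83 with MIG, and Cd34, a progenitor surface protein, at 12.24, 12.28 and 11.9 with the minimal fusion and at 11.93, 11.73 and 12.43 with MIG. Markers of fibroblasts and producer-type cells (26 genes) had mean levels of 6.85 to 7.0 on the minimal fusion arrays and 6.89 to 7.15 on the MIG arrays.

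The MIG arrays differed among themselves in the levels of mature-lineage genes, and this touches every result below in which the genes of a lineage are lower. On the 6 arrays, each gene was centred on its own mean and the median over a marker list was taken. The monocyte and macrophage list (28 genes) stood at −0.27, −0.27 and −0.24 on the minimal fusion arrays and at 0.0, 1.09 and −0.22 on the MIG arrays, with replicate 2 far above the rest. The mast cell and basophil list (27 genes) stood at −0.14, −0.73 and −0.41 on the minimal fusion arrays and at −0.04, 0.05 and 1.04 on the MIG arrays, with replicate 3 far above the rest. Values without single arrays are given beside the lists where they moved.

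Sequences that belong to the findings are given here first. The promoters shown are those of 4 genes of the low-oxygen response and lactate export, which stood lower with the minimal fusion. Each runs over the 250 bases before the RefSeq start of the gene in the build GRCm38.p6, in the direction of transcription. Capitals mark every match to ACGTG or GCGTG on either strand, the core letters of the sites that hypoxia-inducible factors are known to bind; a match is a description of the letters and not a shown site.
Ankrd37 promoter (chr8:45999851-46000100, minus strand): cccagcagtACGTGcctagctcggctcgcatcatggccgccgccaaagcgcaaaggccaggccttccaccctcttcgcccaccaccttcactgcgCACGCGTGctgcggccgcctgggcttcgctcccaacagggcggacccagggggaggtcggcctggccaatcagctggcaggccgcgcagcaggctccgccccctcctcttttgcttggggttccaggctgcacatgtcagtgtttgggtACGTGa
P4ha1 promoter (chr10:59323046-59323295, plus strand): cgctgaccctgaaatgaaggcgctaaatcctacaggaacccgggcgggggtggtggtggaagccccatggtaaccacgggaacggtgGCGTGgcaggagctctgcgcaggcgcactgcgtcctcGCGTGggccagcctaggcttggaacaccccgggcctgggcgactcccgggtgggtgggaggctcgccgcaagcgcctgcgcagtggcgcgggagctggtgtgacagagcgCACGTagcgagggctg
Bnip3 promoter (chr7:138909507-138909756, minus strand): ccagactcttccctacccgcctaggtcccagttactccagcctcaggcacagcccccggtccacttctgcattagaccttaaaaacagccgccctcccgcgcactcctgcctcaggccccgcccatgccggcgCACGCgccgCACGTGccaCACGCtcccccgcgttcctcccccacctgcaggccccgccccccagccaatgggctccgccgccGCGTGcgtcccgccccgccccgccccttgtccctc
Slc16a3 promoter (chr11:120948817-120949066, plus strand): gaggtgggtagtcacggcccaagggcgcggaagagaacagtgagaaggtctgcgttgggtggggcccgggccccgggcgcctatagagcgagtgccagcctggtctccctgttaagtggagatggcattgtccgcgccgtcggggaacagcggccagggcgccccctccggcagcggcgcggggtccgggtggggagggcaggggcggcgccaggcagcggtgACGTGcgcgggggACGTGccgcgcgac
The miRNAs shown are those of Mir196b, which lies in the HOXA cluster, of its paralogues in the HOXB and HOXC clusters, and of Mir505, which had the highest difference among the 297 miRNA genes measured. The mature sequences are RefSeq's on GRCm38.p6, with the seed, bases 2 to 8, in capitals.
miR-196b-5p (chr6:52230129-52230150, minus strand): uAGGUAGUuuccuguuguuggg
miR-196a-5p (chr11:96265187-96265208 and chr15:102973365-102973386, plus strand): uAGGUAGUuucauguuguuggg
miR-505-3p (chrX:60394416-60394437, minus strand): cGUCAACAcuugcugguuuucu
miR-505-5p (chrX:60394451-60394473, minus strand): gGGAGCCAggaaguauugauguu
The miR-196 products share their seed, and the seeds of the Mir505 arms differ from it and from each other.

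Differences between the minimal fusion and MIG were tested with limma over the 23410 probe sets that carry a gene symbol, and p-values were adjusted by Benjamini-Hochberg. At an adjusted p under 0.05, 8 probe sets passed, each of a different gene. These are 0.0342% of the probe sets tested: 7 rose (0.0299%) and 1 fell (0.00427%). The genes that rose were Hoxa9, Hoxa6, Hoxa10, Hoxa3, Cd27, Nkx2-3 and Zscan25, and the gene that fell was Ankrd37. In each of the 8 the 3 minimal fusion arrays did not overlap the 3 MIG arrays, as held for 6.08% of all probe sets with the minimal fusion higher and for 6.0% with it lower. Of the 8, Hoxa9 passed in every fit that left out 1 of the 12 arrays, and the count of calls then ran from 1 to 9. Hoxa9 was the sole call without MIG replicate 3 and without minimal fusion replicate 2 or 3, and the count of 9 came without MIG replicate 2. With the 6 arrays of the pair fitted alone, none passed by limma, although 1742 probe sets had an unadjusted p under 0.05.

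Cd27 had the largest fold of the 8. It encodes a receptor of the tumour necrosis factor receptor family found on lymphocytes and on part of the early progenitors. Its level was 9.77, 10.36 and 9.85 on the minimal fusion arrays and 8.5, 8.03 and 7.65 on the MIG arrays. The mean was 9.99 ± 0.32 with the minimal fusion and 8.06 ± 0.42 with MIG (SD, n = 3 each), a log2 difference of 1.93 (SE 0.23), or 3.81-fold (adjusted p = 0.0359, limma). Every minimal fusion array was brighter than every MIG array by more than the spread within either group. The CALM-AF10 arrays lay between, with a mean of 9.16, and the ΔOM-LZ arrays averaged 8.26, near MIG.

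Nkx2-3, a homeobox factor needed for the spleen and gut lymphoid tissue, also rose past the threshold. It lay at 7.98, 7.73 and 8.21 with the minimal fusion and at 7.05, 6.66 and 6.87 with MIG, a log2 difference of 1.11 (SE 0.15, adjusted p = 0.0451, limma). Zscan25, a zinc finger gene, rose by the smallest amount and with the tightest replicates. Its level was 8.27, 8.31 and 8.29 with the minimal fusion and 7.74, 7.76 and 7.7 with MIG, a 1.47-fold difference (log2 0.56, SE 0.08, adjusted p = 0.0484, limma). Zscan25 averaged 8.23 with CALM-AF10 and 8.18 with ΔOM-LZ, so the interval of the difference included 0 for the minimal fusion minus CALM-AF10 (0.06, 95% interval −0.1 to 0.23) and for the minimal fusion minus ΔOM-LZ (0.11, −0.06 to 0.28).

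Ankrd37, an ankyrin repeat gene known as a target of hypoxia-inducible factors, was the single gene to fall. Its level was 6.51, 6.5 and 6.73 on the minimal fusion arrays and 7.77, 7.44 and 7.86 on the MIG arrays. The log2 difference was −1.11 (SE 0.14), 2.16-fold lower (adjusted p = 0.0383, limma). With CALM-AF10 and ΔOM-LZ it averaged 6.71 and 6.63. The minimal fusion minus CALM-AF10 was −0.13 (95% interval −0.43 to 0.18), and the minimal fusion minus ΔOM-LZ was −0.04 (−0.35 to 0.26).

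The HOXA genes gave the base for reading the rest. All 10 HOXA genes measured were higher with the minimal fusion, with a median log2 difference of 1.16, and the arrays within each group lay close together. The list stood at 0.41, 0.67 and 0.47 on the minimal fusion arrays and at −0.57, −0.54 and −0.47 on the MIG arrays. Hoxa9 was at 9.94, 10.09 and 10.13 with the minimal fusion and at 8.74, 8.44 and 8.81 with MIG (log2 difference 1.39, SE 0.11, adjusted p = 0.00132, limma). Mir196b, the miRNA gene within the cluster, stood at 7.1, 6.41 and 6.88 with the minimal fusion and at 5.98, 6.04 and 6.01 with MIG, a log2 difference of 0.79 (SE 0.22) that did not pass the adjusted threshold (adjusted p = 0.426, limma). The genes of miR-196a, with the same seed but outside the cluster, differed by −0.01 (Mir196a-1) and 0.14 (Mir196a-2).

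Beside the 8 calls, differences of at least 2-fold were counted gene by gene. The minimal fusion was at least 2-fold lower than MIG in 242 genes (1.21% of the genes) and at least 2-fold higher in 19 (0.0953%), although over all genes 52.1% lay above 0 and 47.9% below. Of the 19 higher genes, 18 had groups that did not overlap, 19 had an unadjusted p under 0.05 and 6 passed the adjusted threshold, with a median SD of 0.36 among the minimal fusion arrays and 0.21 among the MIG arrays. The 242 lower genes were uneven in MIG. Their median SD was 0.47 among the minimal fusion arrays and 0.9 among the MIG arrays, 137 had groups that did not overlap, and 1 passed the adjusted threshold. The MIG array farthest from the minimal fusion was replicate 3 in 163 of them, replicate 2 in 75 and replicate 1 in 4. With 1 array left out, the lower count ran from 181 without minimal fusion replicate 2 to 429 without MIG replicate 1, and the higher count from 17 without minimal fusion replicate 3 to 39 without MIG replicate 1, so that the lower count exceeded the higher in all 6 cases. The count of lower genes was 376 and that of higher genes 38 without minimal fusion replicate 1.

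Eya1, a phosphatase and transcription coactivator, had the highest log2 difference of all genes. It lay at 9.21, 8.85 and 9.0 with the minimal fusion and at 6.6, 6.92 and 7.71 with MIG, a log2 difference of 1.94 (SE 0.42) or 3.85-fold, with groups far apart but an uneven MIG group (adjusted p = 0.307, limma). Mecom, the zinc finger factor also known as EVI1, was at 8.81, 8.67 and 8.13 with the minimal fusion and at 6.67, 6.68 and 7.86 with MIG, a log2 difference of 1.47 (adjusted p = 0.405, limma). Its dimmer probe set was more even, at 6.83, 6.52 and 6.72 with the minimal fusion and 5.49, 5.63 and 5.84 with MIG, and lay just outside the threshold (log2 difference 1.04, SE 0.16, adjusted p = 0.0639, limma). Flt3, a receptor tyrosine kinase of early lymphoid and myeloid progenitors, stood at 8.84, 7.98 and 8.38 with the minimal fusion and at 6.9, 7.17 and 6.91 with MIG (log2 difference 1.4, adjusted p = 0.521, limma).

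On the list of stem and progenitor transcription factors, 29 genes were measured and 19 stood higher with the minimal fusion. An unadjusted p under 0.05 was reached by 8 in the higher direction and by 1, Id2, in the lower. Over all genes these shares are 3.51% higher and 4.22% lower. The list's median was 0.12, against 0.01 for all genes. Besides Nkx2-3, Eya1 and Mecom, the higher members were Hmga2 (0.65), Lmo2 (0.59), Sox4 (0.55), Msi2 (0.45) and Etv6 (0.24), all log2 differences with groups that did not overlap and with an adjusted p of 0.33 or more. Hmga2, a chromatin-binding protein of fetal stem cells, lay at 9.36, 9.71 and 9.36 with the minimal fusion and at 9.06, 8.6 and 8.82 with MIG. Id2, an inhibitor of differentiation factors, lay at 10.22, 9.58 and 9.68 with the minimal fusion and at 10.59, 11.23 and 12.38 with MIG. Counts at that p stayed at 7 or 8 higher members whichever of the 6 arrays was left out. The list, with Nkx2-3, Eya1 and Mecom on it, was chosen with earlier results of these data known. Its counts are therefore a description.

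Near the constructs' own genes, 1 neighbour stood out. Mllt10, from which the AF10 part was taken, lay at 10.56, 10.21 and 10.31 with the minimal fusion and at 10.33, 10.48 and 10.64 with MIG (log2 difference −0.12, adjusted p = 0.855, limma); how many of its probes fall in the AF10 fragment is not known here. Picalm was not analysed here, since no probe set carried its symbol. Skida1, the SKI/DACH domain gene next to Mllt10, lay at 5.62, 5.83 and 6.34 with the minimal fusion and at 4.87, 4.74 and 4.68 with MIG, just outside the threshold (log2 difference 1.17, SE 0.17, adjusted p = 0.0594, limma). Of the other members of this neighbourhood, Bmi1, a Polycomb gene, differed by 0.24, Commd3 by 0.04, Armc3 by −0.03, Spag6 by −0.08, Nebl by −0.1, Dnajc1 by −0.17 and Pip4k2a by −0.54, all with overlapping groups.

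Other genes just outside the threshold were Hoxa5 (log2 difference 1.46, adjusted p = 0.052), the cell-cycle driver Ccnd1 (0.65, 0.0594), A630072M18Rik (0.8, 0.0594), Zfp36l2, an mRNA-decay factor (0.57, 0.0615), Bahcc1 (0.93, 0.0775) and Psmg4, a proteasome assembly chaperone (0.69, 0.0922), all by limma. Ccnd1, cyclin D1, was even within groups, at 7.13, 7.24 and 7.23 with the minimal fusion and at 6.48, 6.73 and 6.45 with MIG. Cyclins D2 and D3 differed by −0.1 and −0.13 with overlapping groups. The MEIS, PBX and PREP cofactors, homeobox partners of HOX proteins, showed no common direction. Over the 8 measured the median was −0.11, with Meis1 at 0.31, Pknox1 at 0.07, Pbx4 at 0.06, Meis3 at 0.0, Pbx2 and Pbx3 each at −0.22, Pknox2 at −0.29 and Meis2 at −0.34. Meis1 lay at 10.93, 10.54 and 10.66 with the minimal fusion and at 10.03, 10.13 and 11.03 with MIG, so that 1 MIG array lay above all minimal fusion arrays.

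The remaining genes of the higher extreme were of mixed function. Chad, a cartilage matrix protein, differed by 1.59 but ranged from 8.08 to 10.01 among the minimal fusion arrays. The unannotated transcript 9030619P08Rik differed by 1.43, B3gnt5, a glycosyltransferase of the lactosyl glycolipids, by 1.32, and Hpgd, which breaks down prostaglandins, by 1.14. Hpgd was as uneven as Chad, at 5.51, 6.31 and 7.54 with the minimal fusion and at 5.33, 5.51 and 5.1 with MIG. None of these passed the adjusted threshold. Hoxa7, which differed by 1.15, was also among the 15 largest rises. The 15 largest falls held, beside genes described below, Pla2g7 (−3.32), Klk1b11 (−3.2), Erv3 (−2.93), Maob (−2.7), Gzmb (−2.27), Bst1 (−2.04) and Radx (−2.02). Hoxa7 and these falls did not pass the adjusted threshold either.

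Genes that cells switch on at low oxygen were lower with the minimal fusion as a group, and Ankrd37, the one fall past the threshold, belongs to them. Of 31 low-oxygen genes outside glycolysis, 29 stood lower, 23 with an unadjusted p under 0.05 and 15 with groups that did not overlap. Over all genes those last shares were 4.22% and 6.21%. The list's median log2 difference was −0.68, against 0.01 for all genes. The list stood at −0.19, −0.42 and −0.39 on the minimal fusion arrays and at 0.48, −0.08 and 0.69 on the MIG arrays, so that MIG replicate 2 lay nearest to the fusion.

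P4ha1, a prolyl hydroxylase subunit that matures collagen, was closest to Ankrd37 in its t statistic. It lay at 9.61, 9.56 and 9.71 with the minimal fusion and at 10.98, 10.35 and 11.23 with MIG, a log2 difference of −1.23 (SE 0.2, adjusted p = 0.119, limma). Nos2, the inducible nitric oxide synthase, was at 6.04, 5.96 and 6.23 with the minimal fusion and at 7.26, 6.91 and 6.84 with MIG (−0.93, adjusted p = 0.14, limma). The minimal fusion arrays lay close together in both genes, below every MIG array. Bnip3, a mitophagy receptor, was at 9.37, 9.39 and 9.52 with the minimal fusion and at 11.57, 10.12 and 11.46 with MIG (−1.62, SE 0.35, adjusted p = 0.318, limma), and its other probe set gave −1.61. Further members were Ndrg1 (−1.55), Ero1a (−1.01), Ddit4 (−0.84) and Vegfa (−0.73). At the other end of the list stood Jmjd6 at −0.01, Epo, the kidney hormone, at 0.06 and Higd1a at 0.38, whose other probe set gave 0.0.

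Glycolysis and lactate export went the same way to a smaller extent. Of 20 genes, 16 stood lower and 8 had an unadjusted p under 0.05 (4.22% of all genes), with a median of −0.3. Slc16a3, which exports lactate, lay at 9.09, 9.07 and 9.64 with the minimal fusion and at 11.11, 10.17 and 10.79 with MIG (−1.42, SE 0.33, adjusted p = 0.368, limma). Slc2a1, the basal glucose transporter, lay at 10.92, 11.23 and 11.22 with the minimal fusion and at 12.1, 11.48 and 12.05 with MIG, a log2 difference of −0.75. The glucose transporter Slc2a3 and the isoenzymes Eno2 and Aldoc differed by −1.65, −1.52 and −1.45. The main isoenzymes of the pathway differed less: Pgk1 by −0.54, Aldoa by −0.36, Pkm by −0.1 and Hk1 by 0.06, and Hk3 stood at 0.57.

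The low-oxygen and glycolysis differences were seen against MIG and were small against the other fusions. The median of the 31 low-oxygen genes was −0.13 for the minimal fusion minus CALM-AF10 and −0.04 for the minimal fusion minus ΔOM-LZ. For the 20 glycolysis genes those medians were −0.03 and 0.04. Against MIG the glycolysis median was −0.52 without MIG replicate 2 and −0.21 without MIG replicate 1 or 3, with 7 to 10 genes at an unadjusted p under 0.05. P4ha1 differed by −0.32 from CALM-AF10 and by −0.37 from ΔOM-LZ, and Bnip3 by −0.76 and −0.54. Leaving out 1 of the 6 arrays kept the low-oxygen median between −0.82 and −0.56, while the count at an unadjusted p under 0.05 ran from 13 without MIG replicate 3 to 24 without MIG replicate 2. The lineage lists differed between the MIG arrays as given above, and their part in these genes was not tested.

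In the promoters printed above, Ankrd37 held 4 core matches, P4ha1 3, Bnip3 5 and Slc16a3 2. In Ankrd37 the middle matches overlap on opposite strands, and in Bnip3 an ACGTG match on each strand overlaps to form CACGTG, the E-box that other factors also bind. At least 1 core was found in 23 of the 26 low-oxygen genes with a promoter in the table (88.5%) and in 17 of 19 glycolysis genes (89.5%), against 49.9% of the 15614 measured genes with a promoter and 41.5% of all 27025 promoters. ACGTG alone was in 65.4% of the low-oxygen promoters and in 20.9% of those of measured genes. Among the low-oxygen genes with an unadjusted p under 0.05, 17 of 19 promoters held a core and 73.7% held ACGTG, against 6 of 7 and 42.9% among those without, and these shares were not tested. The lists of mast cell and megakaryocyte genes, which also stood lower, held a core in 33.3% and 37.5% of their promoters, and the HOXA list in 55.6%. Since the low-oxygen list was made of genes known for their response to low oxygen, these shares describe the list and not the effect of the fusion.

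Small nucleolar RNAs were the second family after HOXA to stand higher. The set was taken from RefSeq gene types after the values had been seen, so its counts are a description. Of 54 snoRNA genes, which guide the modification of ribosomal and spliceosomal RNA, 50 stood higher with the minimal fusion, 25 with an unadjusted p under 0.05 and 26 with groups that did not overlap, and none reached that p in the lower direction. Over all genes, 3.51% had such a p in the higher direction and 6.15% did not overlap. The median log2 difference was 0.5, with a range of −0.17 to 1.02. The list stood at 0.29, 0.08 and 0.33 on the minimal fusion arrays and at −0.16, −0.26 and −0.24 on the MIG arrays, all minimal fusion arrays above all MIG arrays.

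Both structural classes took part. Among the H/ACA type (Snora), 20 of 20 stood higher with a median of 0.54, and among the C/D type (Snord), 29 of 31 with a median of 0.52. Snora30 was at 7.55, 7.48 and 7.68 with the minimal fusion and at 6.95, 6.35 and 6.93 with MIG (0.83, adjusted p = 0.256, limma). Snora23 was at 11.39, 11.34 and 11.62 with the minimal fusion and at 10.99, 10.88 and 10.69 with MIG (0.59, adjusted p = 0.287, limma). Snord53 was at 11.26, 10.97 and 11.46 with the minimal fusion and at 10.34, 10.4 and 10.32 with MIG (0.87, adjusted p = 0.307, limma). In all 3 the groups were apart, and no snoRNA passed the adjusted threshold.

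Most mammalian snoRNAs are cut out of introns of other genes, and 31 of the 54 lay inside 27 measured genes, called hosts here. A host is a measured gene whose RefSeq interval holds the snoRNA. Strand and introns were not compared, so a pair need not be a true host. The median difference of the hosts was 0.02, and 14 of 27 stood higher. Of the 27 hosts, 3 had an unadjusted p under 0.05, all higher, against 3.51% of all genes in that direction. The 31 snoRNAs had a median of 0.58. In 30 of the 31 pairs the snoRNA's difference was above that of its host. Since the snoRNA set was taken after its values had been seen, this comparison is a description. Snord42a differed by 1.02 and its host Rpl23a, a ribosomal protein gene, by 0.02. Snord37 differed by 0.9 and its host Eef2, a translation elongation factor, by −0.04. Snora20 differed by 0.86 and its host Tcp1, a chaperonin subunit, by −0.05.

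The snoRNA difference was again one from MIG: the median was −0.01 for the minimal fusion minus CALM-AF10 and 0.12 for the minimal fusion minus ΔOM-LZ. Leaving out 1 of the 6 arrays gave medians of 0.39 to 0.59 and 16 to 29 genes at an unadjusted p under 0.05; the 16 came without minimal fusion replicate 3. Among other small RNAs, the 7 spliceosomal snRNA genes all stood higher with a median of 0.16. The 297 miRNA genes had a median of 0.02, with 10 higher and 4 lower at that p (3.51% and 4.22% of all genes). The 726 long noncoding genes had a median of 0.04.

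Mir505 had the highest difference among miRNA genes. Its level was 8.96, 9.17 and 9.5 on the minimal fusion arrays and 8.6, 8.29 and 7.93 on the MIG arrays, a log2 difference of 0.94 (SE 0.21, adjusted p = 0.33, limma). It differed by −0.02 from CALM-AF10 and by 0.2 from ΔOM-LZ, while Mir196b differed by 0.77 and 0.93. Thus the 2 miRNA genes, whose mature sequences are printed above, lay apart from MIG by similar amounts and apart from the other fusions by different ones. A probe set on this array reads the RNA of the miRNA gene in total RNA and does not separate the mature form from its precursor. Mir505 was chosen for its value, which is a description.

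Of 32 ribosome assembly and MYC-linked genes, 26 stood higher, 11 with an unadjusted p under 0.05 (3.51% of all genes), and the median was 0.22. Nop16, a nucleolar protein, lay at 11.27, 11.49 and 11.18 with the minimal fusion and at 11.07, 10.91 and 10.74 with MIG (0.4, adjusted p = 0.415, limma). Nhp2, a core protein of the H/ACA snoRNA particle, lay at 9.81, 10.23 and 10.3 with the minimal fusion and at 9.73, 9.37 and 8.95 with MIG (0.77, adjusted p = 0.522, limma), and Rrp12, a ribosome export factor, differed by 0.44. The groups were apart in these 3 genes. The lowest members were Nop58, a core protein of the C/D snoRNA particle, at −0.24, Polr1c at −0.17 and Ldha at −0.16. The count at that p was 3 without MIG replicate 3 and 15 without MIG replicate 1.

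Mitochondrial ribosomal proteins followed with 48 of 63 higher, 8 of them at an unadjusted p under 0.05 (3.51% of all genes), and a median of 0.17. Mrpl22 lay at 7.94, 8.48 and 8.24 with the minimal fusion and at 7.62, 7.48 and 7.47 with MIG (0.7, adjusted p = 0.378, limma). Mrps6 differed by 0.49 and Mrpl41 by 0.71, the other probe set of Mrpl41 by 0.35. The count ran from 2 without MIG replicate 3 or without minimal fusion replicate 2 to 19 without MIG replicate 1, and the median from 0.07 without minimal fusion replicate 2 to 0.26 without MIG replicate 1. Cytosolic ribosomal proteins had a median of 0.03, proteasome subunits 0.19 and oxidative phosphorylation genes 0.14. Of the 46 cytosolic ribosomal proteins, 10 higher and 1 lower had groups that did not overlap (6.15% and 6.21% of all genes). With 1 array left out the proteasome median ran from 0.03 without minimal fusion replicate 2 to 0.36 without MIG replicate 1, and the oxidative phosphorylation median from 0.04 to 0.27 without the same arrays.

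Replication genes stood higher in number but not array by array. Of 42 DNA replication genes, 40 had a difference above 0, with a median of 0.24. Yet 1 had an unadjusted p under 0.05 (3.51% of all genes in that direction), and none had groups that did not overlap. The list stood at −0.11, 0.4 and 0.1 on the minimal fusion arrays and at 0.35, −0.42 and −0.32 on the MIG arrays, so MIG replicate 1 was higher than minimal fusion replicates 1 and 3. Pold2, a DNA polymerase delta subunit, was at 11.21, 11.28 and 11.07 with the minimal fusion and at 11.11, 10.68 and 10.76 with MIG. The median was 0.46 without MIG replicate 1 and 0.08 without minimal fusion replicate 2. The count at an unadjusted p under 0.05 was 12 without MIG replicate 1, 4 without minimal fusion replicate 1, and 0 without MIG replicate 2 or 3 or minimal fusion replicate 2. The 42 mitosis genes had a median of −0.05 and none at that p.

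Of the mature lineages, mast cell genes held some of the largest differences. Of 27 mast cell and basophil genes, 25 stood lower with the minimal fusion, 12 by at least 2-fold, 9 with an unadjusted p under 0.05 and 13 with groups that did not overlap, and the median was −0.77. Over all genes those shares were 1.21%, 4.22% and 6.21%. Mcpt2, a mast cell protease, lay at 5.23, 6.58 and 5.77 with the minimal fusion and at 8.02, 8.85 and 10.69 with MIG, a log2 difference of −3.33 (SE 0.78, adjusted p = 0.368, limma). Tpsab1, a tryptase, lay at 6.8, 6.48 and 6.51 with the minimal fusion and at 7.59, 9.0 and 12.63 with MIG. Both were lower on every minimal fusion array, and MIG replicate 3 was far above the other MIG arrays.

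Mitf, the transcription factor that mast cells depend on, was more even, at 7.94, 7.87 and 7.69 with the minimal fusion and at 8.56, 9.05 and 9.54 with MIG (−1.22, adjusted p = 0.368, limma), while a dimmer Mitf probe set, at 3.5, 3.43 and 3.54 with the minimal fusion and at 3.35, 3.47 and 3.52 with MIG, gave 0.04. Cpa3, a protease already present in immature mast cells, differed by −0.68, Tph1, which makes serotonin, by −3.22, and Fcer1a, the IgE receptor chain, by −2.19. The members at the other end were Prss34, a basophil protease, at 0.55, Mcpt1 at 0.03 and Srgn at −0.04, all with overlapping groups. Without MIG replicate 3 the median was −0.48 with 5 genes at an unadjusted p under 0.05, without MIG replicate 1 it was −0.98 with 15, and without minimal fusion replicate 2 it was −0.59 with 4. Against the other fusions the median was −0.4 (CALM-AF10) and −0.81 (ΔOM-LZ).

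Megakaryocyte and platelet genes were lower in 29 of 33, 13 with an unadjusted p under 0.05 (4.22% of all genes) and 9 by at least 2-fold (1.21% of all genes), with a median of −0.54. Ppbp, a platelet chemokine, had the lowest difference of all genes, at 7.98, 7.52 and 7.03 with the minimal fusion and at 9.41, 12.3 and 11.57 with MIG (−3.59, SE 0.95, adjusted p = 0.415, limma). Mmrn1, a platelet granule protein, was at 5.54, 5.67 and 5.14 with the minimal fusion and at 5.97, 7.49 and 7.77 with MIG, and Itgb3, an integrin subunit of platelets, differed by −1.1. In these genes MIG replicate 1 lay nearest to the minimal fusion.

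One platelet receptor gene went the other way and was even within groups. F2rl3, the thrombin receptor PAR4, lay at 9.06, 9.12 and 8.66 with the minimal fusion and at 8.33, 8.38 and 7.97 with MIG (0.72, SE 0.15, adjusted p = 0.294, limma). Tbxa2r, the thromboxane receptor, differed by 0.34 and Nfe2, a factor that platelet formation requires, by 0.06. The list stood at −0.04, −0.38 and −0.31 on the minimal fusion arrays and at −0.14, 0.47 and 0.69 on the MIG arrays. The count of lower genes at an unadjusted p under 0.05 was 7 without MIG replicate 3, 8 without minimal fusion replicate 2 and 20 without MIG replicate 1.

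Neutrophil genes were counted by stage. Of 22 late granule and maturation genes, all 22 stood lower, 5 with an unadjusted p under 0.05 (4.22% of all genes) and 6 with groups that did not overlap (6.21% of all genes), and the median was −0.5. The primary granule list, named for granules made in early neutrophil precursors, had 12 genes measured. Of these, 6 stood higher and 6 lower, with a median of 0.01. Not every member is a protein of those granules, so the even split describes the list and not the stage. The difference between these lists was not tested.

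Cxcr2, the chemokine receptor of mature neutrophils, stood at 8.2, 7.65 and 7.88 with the minimal fusion and at 9.13, 8.76 and 8.91 with MIG (−1.02, adjusted p = 0.527, limma). Chil3, a secreted lectin, was at 5.92, 6.26 and 5.95 with the minimal fusion and at 7.75, 9.08 and 7.04 with MIG, and Stfa2, a protease inhibitor, differed by −1.68. S100a9, Il1r2 and Itgam differed by −0.35, −0.26 and −0.24 with overlapping groups. On the primary granule list, the higher members were Mpo (0.06), Elane (0.07), Ctsg (0.13), Prss57 (0.44), Ms4a3 (0.55) and Prtn3 (0.57). Among the lower ones, Cst7 differed by −0.18, Igsf6 by −0.15, Hp by −0.32 and Srgn, which the mast cell list also holds, by −0.04. The groups overlapped in all of these genes. Ctsc, the protease that activates the granule proteases, was at 11.06, 11.12 and 11.03 with the minimal fusion and at 11.59, 11.81 and 11.64 with MIG (−0.61, adjusted p = 0.368, limma). Serpinb1a, their inhibitor, differed by −0.76. Without MIG replicate 2 the late list's median was −0.3 with 2 genes at an unadjusted p under 0.05, and without MIG replicate 3 it was −0.87 with 8. The median was −0.3 against CALM-AF10 and −0.98 against ΔOM-LZ.

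Monocyte and macrophage genes were lower in 25 of 28, 9 by at least 2-fold, 4 with an unadjusted p under 0.05 and 6 with groups that did not overlap, with a median of −0.56. Over all genes those shares were 1.21%, 4.22% and 6.21%. Adgre1, the macrophage surface protein F4/80, lay at 8.88, 8.5 and 8.38 with the minimal fusion and at 9.61, 10.63 and 10.59 with MIG (−1.69, adjusted p = 0.439, limma). Lgals3, a lectin, differed by −1.29 and F13a1, a clotting factor subunit of monocytes, by −1.59. C1qa, Marco and Cx3cr1 differed by 0.04 to 0.07. Without MIG replicate 2 the median was −0.17 with 3 genes at that p, and without MIG replicate 3 it was −0.71 with 10.

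Inflammatory genes were lower in 31 of 35, 10 with an unadjusted p under 0.05 (4.22% of all genes), with a median of −0.47. Il1b, interleukin 1 beta, lay at 6.2, 6.21 and 6.63 with the minimal fusion and at 7.22, 9.8 and 8.9 with MIG (−2.3, SE 0.64, adjusted p = 0.435, limma). Tnfaip3, which restrains NF-κB, differed by −0.99, Ccl2 by −2.2 and Saa3, an acute-phase protein, by −2.93. Nos2 belongs to this list too. At the other end Csf3 differed by 0.17, Il18 by 0.19 and Il12b by 0.05. The list stood at −0.02, −0.58 and −0.08 on the minimal fusion arrays and at −0.07, 0.52 and 0.05 on the MIG arrays, so that MIG replicate 1 lay within the minimal fusion's range. Without MIG replicate 2 the median was −0.13 with 8 genes at an unadjusted p under 0.05, and without minimal fusion replicate 2 it was −0.32 with 5.

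Toll-like and Fc receptor genes were lower in 17 of 21, 4 at an unadjusted p under 0.05 (4.22% of all genes), with a median of −0.44. The median was −0.09 with 1 gene at that p without MIG replicate 2, and −0.72 with 10 without MIG replicate 3. Tlr4, the receptor for bacterial lipopolysaccharide, lay at 9.0, 8.83 and 8.61 with the minimal fusion and at 9.42, 9.9 and 9.34 with MIG (−0.74, adjusted p = 0.608, limma), and Fcgr2b, the inhibitory Fc receptor, differed by −0.59. Lysosomal genes were lower in 32 of 37, 5 at that p (4.22% of all genes), with a median of −0.26, and Lipa, the acid lipase, differed by −0.54. Their median was −0.14 with 4 genes at that p without MIG replicate 2, and −0.35 with 10 without MIG replicate 1. Without MIG replicate 3 there were 9 at that p. Of 25 targets of p53, 4 were lower and 2 higher at that p (4.22% and 3.51% of all genes), and the median was −0.24. Among them were Mdm2 at −0.54, and Xpc, a DNA repair factor, at 0.36. The p53 median ran from −0.41 without MIG replicate 1 to −0.12 without MIG replicate 3, and the lower count from 2, without MIG replicate 2 or 3 or minimal fusion replicate 3, to 7 without minimal fusion replicate 1.

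Erythroid genes had a median of −0.12 with none at an unadjusted p under 0.05, B cell genes 0.02, T and NK cell genes 0.01, endothelial and adipocyte genes −0.05 and fibroblast and producer-line genes −0.01. Eosinophil genes had a median of −0.27, cytokine receptor and SOCS genes −0.25 and amino acid and unfolded protein response genes −0.21. The cytokine receptor median ran from −0.36 without MIG replicate 1 to −0.14 without MIG replicate 3. The amino acid median ran from −0.33 without minimal fusion replicate 1 to −0.18 without minimal fusion replicate 3. Of its 28 genes, 11 were lower at an unadjusted p under 0.05 without minimal fusion replicate 1, and 1 without MIG replicate 3. On all arrays there were 5 (4.22% of all genes). The HOXB, HOXC and HOXD genes stood higher in 24 of 27, but by a median of 0.08 and with none at an unadjusted p under 0.05. The Polycomb genes had a median of 0.01, the DOT1L complex and MLL partner genes 0.0, clathrin endocytosis genes, the machinery around CALM, −0.1, and imprinted genes 0.0. Single members moved more. Groups did not overlap in 5 higher and 3 lower of 27 DOT1L complex and MLL partner genes, which ranged from −0.7 to 0.74. The same held for 2 higher and 9 lower of 41 clathrin genes and for 1 higher and 3 lower of 31 Polycomb genes. Over all genes those shares were 6.15% and 6.21%. Stem and progenitor surface proteins had a median of −0.22 in spite of Cd27 and Flt3, with Tek, an angiopoietin receptor, at −1.17 and Cd69 at −0.8. That median was −0.34 without MIG replicate 1 and −0.05 without MIG replicate 2.

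Gene families were also taken from the symbols alone, as stems shared by at least 10 genes, which gave 253 families. The highest medians were those of Hoxa, Snora, Snord and Mcm, followed by Timm, Nup and Sf, which tied at a rounded 0.16. The lowest were those of Tlr, Stx, Inpp, Osbpl and Anxa. The syntaxins, membrane fusion proteins of the secretory route, appear on none of the lists above. Of 14, 12 stood lower, 7 with an unadjusted p under 0.05 and 6 with groups that did not overlap, with a median of −0.35. Over all genes those last shares were 4.22% and 6.21%. The family was picked for its median among the 253, so its counts are a description. Stx7, a syntaxin of late endosomes, lay at 8.76, 9.11 and 8.67 with the minimal fusion and at 9.49, 9.53 and 9.38 with MIG (−0.62, SE 0.13, adjusted p = 0.307, limma). Stx11, known from cytotoxic granule release in people, lay at 7.9, 7.86 and 8.07 with the minimal fusion and at 8.28, 9.17 and 9.13 with MIG (−0.92, adjusted p = 0.378, limma). In both genes the groups were apart. The annexins, calcium-dependent membrane binders, had 10 of 12 lower with a median of −0.23, with Anxa2 at −0.85. The Mcm family had 9 of 10 higher, a median of 0.2 and none at that p, and the Timm family, mitochondrial import proteins, a median of 0.16. The Tlr median was −0.35, and those of Inpp, inositol phosphatases, and Osbpl, oxysterol-binding proteins, were each −0.28.

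Whether a difference from MIG was larger with the minimal fusion than with the longer fusions was tested within the same fit, as the minimal fusion minus each of them. Against CALM-AF10, Hoxa9 alone passed (0.00427% of the probe sets), with a log2 difference of 1.08 (95% interval 0.85 to 1.32, adjusted p = 0.0161, limma). This call was lost in 7 of the 12 fits that left out 1 array, namely each array of the minimal fusion and of CALM-AF10 and ΔOM-LZ replicate 3, with the pair fitted alone and with the replicate number as a block. Against ΔOM-LZ, 4 probe sets passed (0.0171%): Hoxa9 (1.44), Hoxa6 (1.61), Hoxa10 (1.3) and the dimmer Mecom probe set (1.23), all higher with the minimal fusion. That count ran from 1 to 5 with 1 array left out, with 1 call without ΔOM-LZ replicate 1 or 2 or without minimal fusion replicate 2 or 3, and it was 0 with the pair fitted alone, where 936 probe sets had an unadjusted p under 0.05 by limma. Eya1 differed by 2.05 from CALM-AF10 (95% interval 1.13 to 2.98) and by 2.53 from ΔOM-LZ (1.6 to 3.45), and Nkx2-3 by 0.87 (0.54 to 1.19) and 1.07 (0.74 to 1.4), without passing the adjusted threshold. For Cd27 these differences were 0.83 (0.33 to 1.34) from CALM-AF10 and 1.74 (1.23 to 2.24) from ΔOM-LZ, the second with an adjusted p of 0.0584 by limma. Where the intervals include 0, as for Zscan25 and Ankrd37, the arrays do not show that the fusions act alike.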

How the data were processed

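RNA of 12 arrays, 3 per construct, was measured after whole-transcript sense labelling, per the labels. The deposited values were log2 intensities per probe set, which, per the submitters' processing notes, the authors made in Affymetrix Expression Console. The program's version, background correction and normalization are not stated in any source used here. The common scale of the arrays therefore rests on an unknown step. That the scale is log2 follows from the range of the values, 2.883 to 14.272, and they were used without renormalization. The number of arrays limits the precision.

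Genes were named through the platform's annotation table: 21789 probe sets had 1 symbol, 1621 several and 12146 none. Differences were tested with limma 3.58.1 (R 4.3.3, lmFit and eBayes, two-sided) on all 12 arrays with 1 mean per construct (8 residual degrees of freedom), with Benjamini-Hochberg adjustment over the 23410 probe sets with a symbol and a threshold of 0.05; the script was tested on simulated data. P-values measure the spread between these arrays.

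The members and gene lists were chosen with earlier results of these data known, so lists are described by counts and medians without a test. Named genes were all calls and the 15 largest differences each way with an unadjusted p under 0.05 and groups that do not overlap. From the lists described at length, genes were drawn from the 3 highest and 3 lowest t statistics. All members were named for the cofactor, primary granule and Mllt10 neighbourhood lists. The HOXA, eosinophil and sex-linked lists, also of at most 12 genes, were not named in full. The 5 highest and 5 lowest families were named, with the families that tied for the last of the highest places. Genes just outside the threshold, further list members given by value, snoRNAs and their hosts, miRNAs, syntaxins and annexins named singly were chosen after their values were seen. Sequences are RefSeq's on GRCm38.p6. Promoters were searched for ACGTG and GCGTG on both strands over 250 bases. Alternatives were other scalings, filters, variance models, probe sets, arrays left out and the replicate number as a block.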

Additional observations from a re-analysis of the deposited data

Results flagged for a closer look

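Differences of the minimal fusion from a longer fusion are the differences of their contrasts with MIG, and 5 of them passed the adjusted threshold (limma). Hoxa9 was higher with the minimal fusion than with CALM-AF10 by 1.08 (log2) and than with ΔOM-LZ by 1.44. The call against CALM-AF10 was lost with the replicate block, with the pair fitted alone and in 7 of the 12 fits that left out 1 array. Against ΔOM-LZ, Hoxa6 was higher by 1.61, Hoxa10 by 1.3 and the dimmer Mecom probe set, 10497608, by 1.23.

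Probe sets without a gene symbol stood outside the comparison above. Tested together with all others, 11 of the 12146 passed when the minimal fusion was set against MIG. Probe set 10468877 was lower by 4.56 on the log2 scale (log2 difference −4.56, adjusted p = 3.66e-07, limma), the largest difference of any of these 11. It lay at 4.59, 4.7 and 4.45 with the minimal fusion, at 4.43, 4.5 and 4.57 with CALM-AF10, at 4.83, 4.55 and 5.0 with ΔOM-LZ and at 9.05, 8.94 and 9.43 with MIG, so that MIG stood apart from all fusions. The other 10 were higher with the minimal fusion. Probe set 10340369 lay at 9.27, 8.91 and 9.13 with the minimal fusion and at 7.2, 7.12 and 7.14 with MIG, a log2 difference of 1.95 (adjusted p = 0.000701, limma). The log2 differences were 0.98 for 10343053, 1.5 for 10342342, 1.81 for 10341040, 1.88 for 10338089, 2.12 for 10339758, 2.58 for 10340118, 2.73 for 10341882, 2.97 for 10343164 and 3.39 for 10340195. In the same test 2 such probe sets passed against CALM-AF10 and 11 against ΔOM-LZ. What these probe sets measure is not known here.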

How the results depend on the processing

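The count of calls against MIG, 8 as reported, was 20 with every probe set of the file tested, 1 with the replicate number as a block (replicate block), 0 with the 6 arrays of the pair fitted alone (1742 at an unadjusted p under 0.05, limma), and 1 to 9 with 1 of the 12 arrays left out. It was 6 to 11 under median centring, quantile normalization, a trended and robust variance, the brighter probe sets only and probe sets with 1 symbol. Against CALM-AF10, 1 as reported, the count was 3 with every probe set, 0 with the replicate block (527 at an unadjusted p under 0.05), 0 with the pair alone (508) and 0 to 1 with 1 array left out. The 0 came in 7 cases, without each array of CALM-AF10 and of the minimal fusion and without ΔOM-LZ replicate 3, with 214 to 1031 probe sets at that p. Against ΔOM-LZ, 4 as reported, it was 17 with every probe set, 2 with median centring, 8 with a trended and robust variance, 0 with the pair alone (936), 3 with the replicate block and 1 to 5 with 1 array left out. Fewer arrays or residual degrees of freedom are part of the pair-alone and left-out fits and more probe sets of the whole-file fit; for the other settings the cause was not tested. Same-numbered minimal fusion and MIG arrays deviated in opposite directions (r = −0.596, −0.346 and −0.212 for numbers 1 to 3). With CALM-AF10 the same r were 0.717, 0.388 and −0.196, and with ΔOM-LZ 0.621, 0.066 and −0.071. In no contrast were all above 0.1, so the numbers were not taken as pairs. The sources do not say what a replicate number shares across constructs. Whether fusion arrays share batches that the MIG arrays do not was not tested. Hoxa9 passed against MIG in 19 of 20 alternatives, Hoxa6 in 15 of 20, Cd27 in 9 of 20, Ankrd37 in 8 of 19, Hoxa3 in 7 of 19, Hoxa10 and Nkx2-3 in 6 of 20 each and Zscan25 in 3 of 20, always in the reported direction. Over 309 named genes, 0 of 6104 values were counted as reversed. A reversal was counted only where the gene passed the adjusted threshold in the main fit or in that alternative. Sign changes of all other named genes were not counted, so the 0 does not show that they kept their direction. Of the lists, 18 had a median at least 0.2 from 0, and 0 of these changed sign.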
